A study of Mus musculus with 23 samples.

Results

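The genes described here are the 40 rows of the count table, of 24062, whose symbol starts with Psma, Psmb, Psmc or Psmd followed by a number, the naming scheme of proteasome subunits in the mouse. By role they were the 7 genes of the alpha ring (Psma1 to Psma7), the 7 constitutive genes of the beta ring (Psmb1 to Psmb7), the 3 immunosubunits (Psmb8, Psmb9 and Psmb10), 6 ATPases (Psmc1 to Psmc6) and 11 non-ATPase subunits of the regulatory particle. The other 6 were the assembly chaperones Psmd5, Psmd9 and Psmd10, the testis form Psma8, the thymus form Psmb11, and Psmc3ip. Psmc3ip shares the name only: it encodes a partner protein that acts in meiotic recombination and is no subunit. Polyadenylated RNA was measured in gastrocnemius, a hind limb muscle, and in fat (IAT in the labels, not spelled out there) of mice aged 8 to 10 months on a mixed background (129Sve/C57BL/6 mix). All mice were untreated, and they differed in Bub1b, the gene of the mitotic checkpoint protein BubR1, whose shortage gives mice early signs of ageing. WT mice carried no mutant allele. In HH mice (BubR1H/H) both alleles were the hypomorphic H allele, which lowers expression, while HL1002P mice (BubR1H/L1002P) joined an H allele to a missense allele. The mutations are in the germ line, so every cell type of a tissue carried them. There were 11 muscle libraries (WT 4, HL1002P 4, HH 3) and 12 fat libraries, 4 from each genotype. Replicates are labelled only as separate samples, and p-values therefore measure the spread between samples, which may be in part technical.

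The proteasome is the protease that degrades proteins tagged with ubiquitin. Its barrel-shaped core has outer rings of alpha subunits, which gate entry, and inner rings of beta subunits, of which Psmb5, Psmb6 and Psmb7 carry the active sites. The regulatory particle on the barrel's end holds ATPases, which unfold the protein and feed it in, and non-ATPase subunits, which bind and remove ubiquitin. In immune cells, and in other cells exposed to interferon, newly built barrels take up Psmb8, Psmb9 and Psmb10 in place of Psmb5, Psmb6 and Psmb7. Such immunoproteasomes make peptides that suit presentation on MHC class I. Atrophying muscle is known for raised expression of many proteasome genes.

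Libraries held 34.1 M to 55.3 M counts in muscle and 22.6 M to 58.8 M in fat. Bub1b, the targeted gene, lay at 0.726 to 0.952 CPM (read counts scaled to a common library size) in WT muscle, 0.181 to 0.273 in HL1002P muscle and 0.326 to 0.520 in HH muscle. In fat it ranged from 7.08 to 11.6 CPM in WT, 6.12 to 22.1 in HL1002P and 5.96 to 14.3 in HH, so there it did not separate the genotypes. Markers matched the tissue labels: 9 muscle fibre genes summed to 137000 to 201100 CPM in muscle, and 9 fat cell genes to 11170 to 41540 CPM in fat. Some fat libraries also held transcripts of other tissues. WT replicate 3 had 15720 CPM of the muscle fibre genes, HH replicate 1 had 14950 and HL1002P replicate 4 had 5951, against 38.3 to 1487 in the others. WT replicates 3 and 4 and HL1002P replicate 4 had 893.5 to 1457 CPM of 5 genes of mammary or other epithelium, HH replicates 2 and 4 had 599.9 and 395.5, and the others had 0.907 to 82.2. These libraries are left out in turn in the fits described with the closing values.

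Results turned on the immunosubunits and the active-site subunits they replace, so the start regions of 4 of these genes are shown. Each is 300 bases of RefSeq sequence (GRCm38.p6), 250 before the start site and 50 after, read along the gene's strand; 33 of the 40 genes had such a window. Capitals mark the match to 1 of 4 short patterns searched on both strands. These were GAAANNGAA, a core of sites for interferon regulatory factors, TTCNNNGAA, the pattern bound by STAT factors, TGACNNNGC, the pattern of NFE2-like factors such as Nfe2l1, and CCAAT, the box bound by NF-Y. Psmb8 lies at chr17:34197945-34198244 on the plus strand and holds TTCNNNGAA, which reads alike on both strands, 97 bases before the start site. Psmb9 lies at chr17:34187281-34187580 on the minus strand and holds CCAAT, read on the opposite strand, 8 bases before it. Psmb5 lies at chr14:54617946-54618245 on the minus strand, with TGACNNNGC 47 bases before its start, and Psmb6 at chr11:70525107-70525406 on the plus strand, with TGACNNNGC 9 bases before.
Psmb8: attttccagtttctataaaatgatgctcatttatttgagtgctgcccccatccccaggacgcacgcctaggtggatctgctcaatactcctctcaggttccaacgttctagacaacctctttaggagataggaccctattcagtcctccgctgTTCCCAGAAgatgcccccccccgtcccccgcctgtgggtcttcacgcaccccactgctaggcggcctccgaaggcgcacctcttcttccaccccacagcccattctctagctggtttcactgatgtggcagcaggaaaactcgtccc
Psmb9: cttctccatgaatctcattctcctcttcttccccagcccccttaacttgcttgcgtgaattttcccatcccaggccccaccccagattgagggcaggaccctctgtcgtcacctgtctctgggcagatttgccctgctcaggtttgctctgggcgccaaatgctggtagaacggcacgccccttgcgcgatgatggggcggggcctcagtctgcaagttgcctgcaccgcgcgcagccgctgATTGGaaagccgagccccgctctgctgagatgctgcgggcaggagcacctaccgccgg
Psmb5: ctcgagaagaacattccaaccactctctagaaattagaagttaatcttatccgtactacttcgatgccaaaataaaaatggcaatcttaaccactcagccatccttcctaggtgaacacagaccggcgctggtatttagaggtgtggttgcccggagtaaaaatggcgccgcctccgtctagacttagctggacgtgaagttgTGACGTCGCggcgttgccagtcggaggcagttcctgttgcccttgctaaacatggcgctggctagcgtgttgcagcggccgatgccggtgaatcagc
Psmb6: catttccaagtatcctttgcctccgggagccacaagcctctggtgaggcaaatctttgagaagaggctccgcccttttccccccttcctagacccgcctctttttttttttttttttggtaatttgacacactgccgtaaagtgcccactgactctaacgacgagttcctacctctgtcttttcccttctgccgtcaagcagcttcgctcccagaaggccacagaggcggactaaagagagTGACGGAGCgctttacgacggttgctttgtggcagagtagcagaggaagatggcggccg

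Each of the 4 windows held only the pattern shown, so no match overlapped another. TTCNNNGAA was in 8.3% of all 32851 windows of this length and in 2 of the 33 genes (6.06%), Psmb8 and Psmd2. TGACNNNGC was in 12.4% of all windows and in 5 of the 33 (15.2%): Psmb5, Psmb6, Psmc6, Psmd12 and Psmd9. GAAANNGAA was in 8.56% of all windows and in 5 of the 33 (15.2%), with neither Psmb8 nor Psmb9 among them, and CCAAT in 37.4% and in 14 of the 33 (42.4%). The Psmb9 window is also that of a neighbour: Tap1, a chain of the transporter that carries peptides to MHC class I, is read in the opposite direction, and the windows share 275 of their 300 bases (chr17:34187306-34187580). In GENCODE M21 the gene of Psmb9 (chr17:34181987-34187764, minus) overlaps Tap1, and Psmb8 (chr17:34197721-34201454, plus) overlaps an antisense gene. Psmb10 (chr8:105935735-105938444, minus) overlaps another antisense gene. The library kit does not keep the strand, so in those stretches reads of the partner genes cannot be told apart. The windows of Psmb8 and Psmb9 lie inside these longer GENCODE genes. Sequence before the GENCODE starts was therefore not searched for these genes, and a pattern there would have been missed. Named pseudogenes exist for Psmb5 (1), Psmb6 (2) and Psmb7 (1), and how their shared reads were counted is not given in the sources used here.

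In WT muscle the constitutive barrel was abundant and the immunosubunits were scarce. On a scale of CPM per kilobase of principal transcript, which allows genes to be compared, Psmb7 (255 ± 28.4, SD, n = 4) and Psmb6 (211 ± 23.02) ranked 1 and 2 of the 40 genes. Psmb10 ranked 32 (13.2 ± 1.15), Psmb8 ranked 36 (4.38 ± 1.10) and Psmb9 ranked 37 (2.83 ± 0.978). Below them on this scale were Psmc3ip, Psma8 and Psmb11. Psma8, an alpha subunit of germ cells, had 0 to 4 reads per muscle library and 8 to 26 per fat library. Psmb11, the beta subunit of thymic epithelium, had 0 to 6 reads in any library and was tested in neither tissue, while Psma8 was tested in fat only. In WT fat the immunosubunits stood in the middle of the order: Psmb10 ranked 19 (82.5 ± 8.72 CPM per kilobase), Psmb8 ranked 20 (78.4 ± 6.70) and Psmb9 ranked 27 (57.5 ± 6.68), with Psmb6 (190 ± 34.3) at the top. In HL1002P fat Psmb8 had moved to rank 4 (155 ± 36.1) and in HH fat to rank 5 (140 ± 32.2). These ranks depend on the gene length used. With the union of all annotated exons, Psmc5 and Psmb5 ranked 1 and 2 in WT muscle, Psmb6 ranked 5, Psmb7 ranked 7, and Psmb10, Psmb8 and Psmb9 ranked 32, 36 and 38. In WT fat Psma6 then ranked 1, Psmb6 ranked 7, and Psmb10, Psmb8 and Psmb9 ranked 11, 22 and 32. Psmb8 then ranked 6 in both HL1002P and HH fat.

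WT muscle was compared with WT fat in a fit of all 23 libraries over 11870 genes, of which 77.2% passed the test (edgeR adjusted p under 0.05), 36% higher and 41.2% lower in muscle. Of the 38 proteasome genes tested there, 32 were higher in muscle, 3 were lower and 3 did not pass, with a median log2 fold change of 0.98 against -0.11 over all genes. The 3 lower ones were the immunosubunits: Psmb9 at -3.27 ± 0.43 (SE, edgeR adjusted p = 8.73e-07), Psmb8 at -3.09 ± 0.37 (adjusted p = 2.61e-07) and Psmb10 at -1.57 ± 0.20 (adjusted p = 8.16e-07). All 11 non-ATPases were higher (median 1.55), with Psmd7 at 1.86 ± 0.12, Psmd12 at 1.65 ± 0.11 and Psmd3 at 1.42 ± 0.10. All 6 ATPases were higher (median 1.25; Psmc3 at 1.55 and Psmc2 at 1.29), as were all 7 constitutive beta genes (median 1.03; Psmb7 at 1.77, Psmb5 at 1.33 and Psmb6 at 1.23). Of the alpha ring, 6 of 7 passed (median 0.68) and Psma1 did not (0.26 ± 0.14, edgeR adjusted p = 0.0973). Among the chaperones only Psmd9 passed (0.47), while Psmd5 (0.04) and Psmd10 (-0.25) did not. The size of these values rests on how the tissues are scaled, since the TMM factors moved muscle against fat by log2 1.01. With library totals alone, 12 genes were higher and 14 lower in muscle. Signs were followed only for the genes named in this comparison. Of these, Psma3 (-0.15), Psma4 (-0.29), Psma6 (-0.067), Psmd9 (-0.53) and Psmc3ip (-0.38) turned. Other genes among the 14 lower turned too, so the counts by role above hold for the TMM scaling only. All 14 genes of a list of MHC class I presentation were lower in muscle (median -2.26), including Tapbp, which tethers class I molecules to the peptide transporter (-1.95), and the transporter chain Tap2 (-2.10). The interferon-induced activator genes Psme1 (-0.91) and Psme2 (-1.57) were lower too. They belong to a list of 15 regulators and assembly factors, of which 10 were higher and 3 lower, with the activator Psme4 at 2.16 and the ubiquitin receptor Adrm1 at 1.21. Of 7 genes governing proteasome transcription 5 were higher and 1 lower, with Nfe2l1 at 1.88, and of 6 ubiquitin genes 1 was higher (Ubb, 0.55, but -0.45 with library totals alone) and 1 lower (Uba6, a ubiquitin-activating enzyme, -1.11).

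In muscle no proteasome gene passed the test in either mutant. The comparison of HL1002P with WT called 0.117% of 14580 genes and 0 of the 38 proteasome genes (edgeR; DESeq2 and limma voom also gave 0, and 0 had an unadjusted p under 0.05). HH against WT called 0.377% of genes and again 0 of 38 (3 at an unadjusted p under 0.05, 0 by the other tools). Most values were small and positive: 31 of 38 were positive in HL1002P, with a median log2 fold change of 0.09 against 0.00 over all genes, and 28 of 38 in HH, with a median of 0.10 against 0.01. Both comparisons use the same WT libraries, so these counts are not independent of each other. The smallest p-values belonged to the regulatory particle. Psmd4, a ubiquitin receptor, was at 183, 166, 192 and 214 CPM in WT muscle, at 281, 218, 208 and 207 in HL1002P, and at 308, 214 and 230 in HH. WT replicate 4 and HH replicate 2 met within 1 CPM, and replicate 1 was the highest library in both mutants. Its log2 fold change was 0.28 ± 0.14 in HL1002P (edgeR adjusted p = 0.515) and 0.41 ± 0.15 in HH (adjusted p = 0.209). For the ATPase Psmc4 the values were 0.21 ± 0.12 (edgeR adjusted p = 0.559) and 0.34 ± 0.13 (adjusted p = 0.224), and for the scaffold subunit Psmd2 in HH 0.29 ± 0.12 (adjusted p = 0.253). These 3 genes were also the ones whose HH libraries all lay above all WT libraries, 3 of 38 (7.89%) where 13.9% of all genes had no overlap in either direction.

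By role, all 11 non-ATPases and all 6 ATPases were positive in HH muscle (medians 0.17 and 0.10), and 9 of 11 and 5 of 6 in HL1002P, with none past the test. Over all 14580 genes, 7589 were positive in HH and 7382 in HL1002P. The non-ATPases summed to 1803 ± 120 CPM in WT muscle (SD, n = 4), 1985 ± 134 in HL1002P (n = 4) and 2079 ± 290 in HH (n = 3), where replicate 1 was at 2413. The constitutive beta ring summed to 1047 ± 124, 1098 ± 131 and 1070 ± 88.8 CPM, differences smaller than the SD of any group. The means of the 3 active-site genes also lay within the spread of their libraries: Psmb5 was at 101 ± 19.1 CPM in WT, 108 ± 27.8 in HL1002P and 100 ± 9.09 in HH, Psmb6 at 168 ± 18.4, 166 ± 19.9 and 162 ± 7.42, and Psmb7 at 295 ± 32.9, 298 ± 18.7 and 282 ± 14.4. Psmc3ip, the namesake, was at 2.03 ± 0.405, 2.27 ± 0.407 and 1.75 ± 0.582 CPM.

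Relative to their means, Psmb8 and Psmb9 varied more between the muscle libraries of each group than the genes of the alpha and constitutive beta rings. Psmb10 did so only in HH, at 22.0 ± 9.84 CPM (SD, n = 3), against 17.2 ± 1.51 in WT and 19.6 ± 3.89 in HL1002P (n = 4 each). Psmb8 was at 5.82, 5.42, 8.14 and 9.12 CPM in WT, at 10.7, 6.93, 9.504 and 18.9 in HL1002P, and at 5.31, 7.81 and 20.6 in HH. Replicate 4 of HL1002P and replicate 3 of HH were the highest of their groups. Replicates 1 and 3 of HL1002P lay slightly above the highest WT library, while replicate 2 of HL1002P and replicates 1 and 2 of HH did not exceed it. The log2 fold changes of 0.70 ± 0.40 in HL1002P (edgeR adjusted p = 0.567) and 0.66 ± 0.43 in HH (adjusted p = 0.473) did not pass. Psmb9 gave 0.47 ± 0.48 (edgeR adjusted p = 0.776) and 0.89 ± 0.51 (adjusted p = 0.415), and Psmb10 gave 0.18 and 0.35 ± 0.25. Without HH replicate 3 the HH values turned to -0.12 for Psmb8, -0.22 for Psmb9 and -0.047 for Psmb10. The same libraries were the highest of their groups in macrophage transcripts. The 11 macrophage markers summed to 65.1 to 180 CPM in WT muscle, to 443 in HL1002P replicate 4 (148 to 262 in the other 3), and to 270 in HH replicate 3 (199.5 and 199.8 in the other 2). All 11 were positive in both mutants, 11 at an unadjusted p under 0.05 in HL1002P and 4 in HH, and none passed the adjusted test. The 15 lymphocyte markers were near 0 in muscle, summing to 1.71 to 7.34 CPM with 1 to 6 of them at 0 in a library. The 5 epithelial markers summed to 0.648 to 1.33 CPM in WT muscle, 5.80 to 155 in HL1002P and 8.52 to 48.3 in HH. The part of macrophage or epithelial transcripts in the immunosubunit values was not tested. In bulk tissue, more cells of a type and more RNA per cell cannot be told apart.

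HL1002P and HH muscle were also compared with each other. This comparison called 0.0206% of genes and 0 of 38 (edgeR; 1 at an unadjusted p under 0.05, 0 by DESeq2 and limma voom), with 19 values positive and 19 negative. The gene with the smallest p was Psmd9, a chaperone of ATPase assembly, at 21.9 ± 1.10 CPM in HL1002P and 17.8 ± 2.01 in HH (log2 fold change 0.30 ± 0.11, edgeR adjusted p = 0.988). Next by p came Psmd3 (-0.19 ± 0.11) and Psma7 (-0.20 ± 0.14). Psmd9 was the only proteasome gene tested whose libraries did not overlap between these groups, 1 of 38 (2.63%) against 5.37% of all genes.

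**Figure D1:**
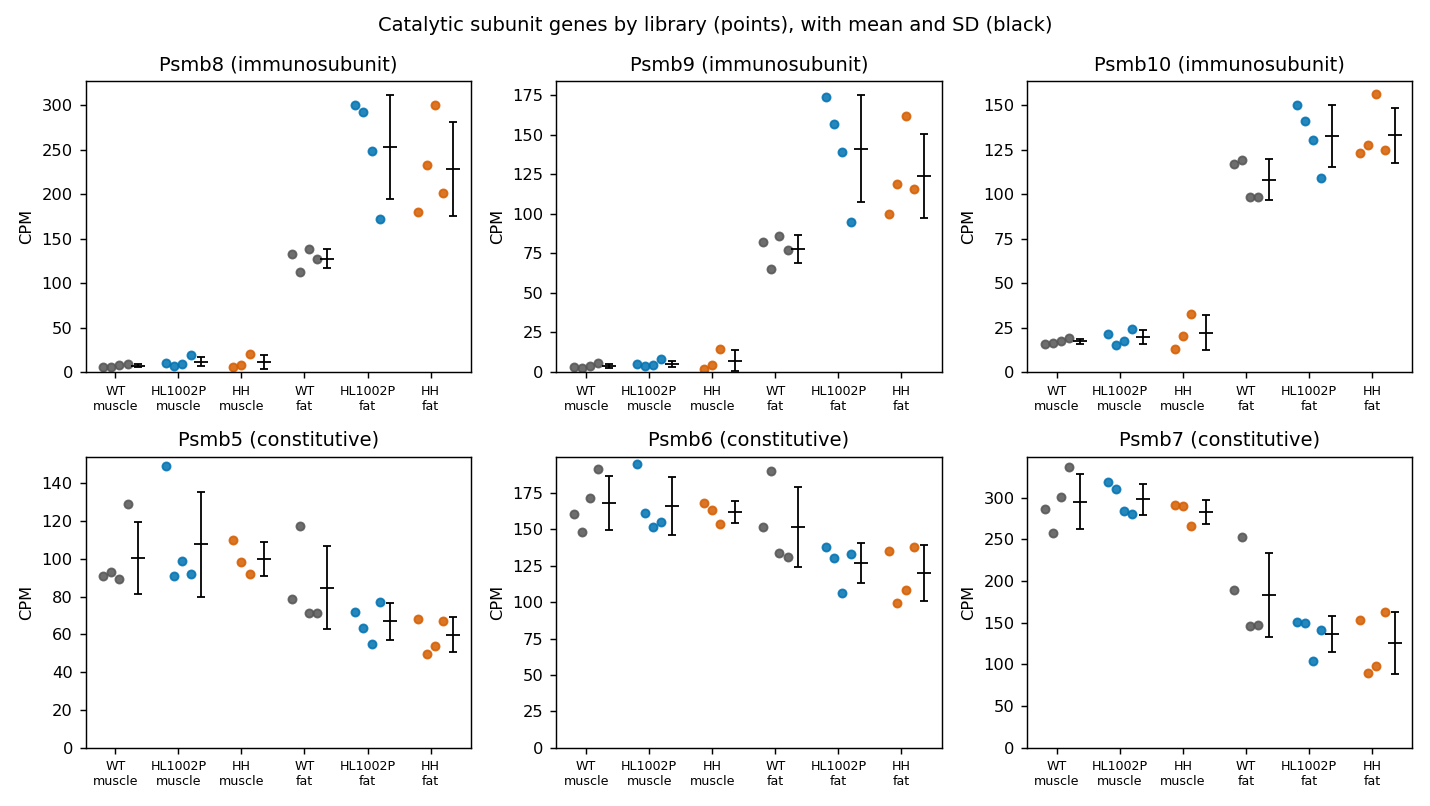
Level (CPM, linear axis from 0) of the 3 immunosubunits and, under each, its constitutive counterpart, with 1 point per library for each genotype and tissue and the mean with SD in black. In fat, every mutant library lies above every WT library for Psmb8 and Psmb9, and in muscle 1 library of each mutant stands above the rest.

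In fat, Psmb8 and Psmb9 rose in both mutants. HL1002P against WT called 31.8% of 16266 genes (17.3% higher, 14.5% lower) and 4 of the 39 proteasome genes tested, 2 higher and 2 lower. This share is below that of all genes. Psmb8, the immune counterpart of the chymotrypsin-like subunit, was at 132, 113, 138 and 127 CPM in WT fat, at 300.1, 292, 248 and 172 in HL1002P, and at 180, 233, 300.1 and 201 in HH. All 8 mutant libraries were above all 4 WT libraries, and HL1002P replicate 4 was the lowest of the mutants. In HL1002P the level rose 1.98-fold, which is 0.99 ± 0.20 on the log2 scale (SE, n = 4 and 4, edgeR adjusted p = 0.00912). Psmb9 was at 82.4, 65.3, 86.0 and 76.9 CPM in WT, at 174, 157, 139 and 94.9 in HL1002P, and at 99.9, 119, 162 and 115 in HH, again with no overlap between mutant and WT. Its log2 fold change in HL1002P was 0.86 ± 0.20 (edgeR adjusted p = 0.0121). Psmb10 was at 117, 119, 98.3 and 98.1 CPM in WT and at 150, 141, 131 and 109 in HL1002P, where replicate 4 fell among the WT libraries. Its 0.30 ± 0.13 did not pass (edgeR adjusted p = 0.0948), and without that replicate it was 0.44 and passed (adjusted p = 0.0211).

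HH against WT fat called 20.8% of genes (12.3% higher, 8.59% lower) and 2 of the 39 proteasome genes, both higher. They were Psmb8, with a log2 fold change of 0.84 ± 0.20 (edgeR adjusted p = 0.0188), and Psmb9, with 0.67 ± 0.20 (adjusted p = 0.0351). Psmb10 was at 123, 128, 156 and 125 CPM in HH, all above WT, and its 0.30 ± 0.13 did not pass (edgeR adjusted p = 0.109). HH and HL1002P share their WT libraries. The Psmb8 call in HH was lost without HH replicate 2 (edgeR adjusted p = 0.0527) or HH replicate 3 (adjusted p = 0.0623), and that of Psmb9 in 5 of the 8 fits that left 1 library out, with log2 fold changes between 0.56 and 0.79 over the 8. In HL1002P both calls were kept in all 8 such fits, with Psmb8 between 0.90 and 1.19 and Psmb9 between 0.75 and 1.07.

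Most constitutive genes had negative values in fat, and few passed. In HL1002P 29 of 39 values were negative (median -0.17 against -0.07 over all genes), and in HH 34 of 39 (median -0.26 against -0.06). The 2 that passed in HL1002P were Psmd3, a scaffold subunit of the regulatory particle's lid, and Psmd9. Psmd3 was at 151, 159, 134 and 132 CPM in WT fat, at 106, 108, 104 and 129 in HL1002P, and at 121, 117, 134 and 129 in HH. All HL1002P libraries lay below all WT libraries, with replicate 4 nearest to them. It fell by 0.37 on the log2 scale in HL1002P (SE 0.11, edgeR adjusted p = 0.0258), and in HH its value was -0.20 ± 0.11 (adjusted p = 0.173). Psmd9 was at 33.3, 35.9, 30.3 and 27.1 CPM in WT and at 24.9, 26.5, 22.9 and 27.5 in HL1002P, where 1 library overlapped WT. It fell by 0.32 (SE 0.11), with an edgeR adjusted p of 0.0499, and the value in HH was -0.31 ± 0.11 (adjusted p = 0.0640). The call of Psmd3 was lost in 5 of the 8 fits without 1 library and that of Psmd9 in 7 of 8. Among the active-site genes, Psmb5 gave -0.34 ± 0.18 in HL1002P and -0.51 ± 0.18 in HH (edgeR adjusted p = 0.155 and 0.0658), Psmb6 -0.26 and -0.34, and Psmb7 -0.43 and -0.54, and none passed. All 4 HH libraries of Psmb5 (49.8 to 68.0 CPM) lay below all WT libraries (71.6 to 117).

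By role, all 11 non-ATPases and all 6 ATPases were negative in both mutants in fat. Over all 16266 genes, 8749 were negative in HL1002P and 8744 in HH. The medians of the non-ATPases were -0.25 in HL1002P and -0.29 in HH, with 1 of 11 and 0 of 11 past the test. The medians of the ATPases were -0.23 and -0.29, with 0 of 6 past it in both. The alpha ring had 5 of 7 negative in HL1002P and 7 of 7 in HH (medians -0.04 and -0.26), and the constitutive beta ring 4 of 7 and 7 of 7 (medians -0.26 and -0.34), with none past the test. WT replicate 2 was the highest fat library in the summed level of each of these groups, so the WT range is wide. The constitutive beta ring summed to 1008 ± 208 CPM in WT fat (SD, n = 4), 925 ± 125 in HL1002P and 835 ± 129 in HH, while the immunosubunits summed to 313 ± 16.4, 527 ± 110 and 486 ± 93.9. Over all members tested, 3 of 39 (7.69%) had no overlap between HL1002P and WT libraries, where 27.5% of all genes had none. For HH it was 5 of 39 (12.8%), where 25.9% of all genes had none. DESeq2 called 3 more genes in HH fat, all lower: Psmb5 (-0.51), Psmd8 (-0.53) and Psmd9 (-0.32). Psmc3ip was at 2.79 ± 0.407 CPM in WT, 4.23 ± 1.37 in HL1002P and 3.704 ± 0.604 in HH fat and did not pass (edgeR adjusted p = 0.0965 and 0.259). Psma8 did not pass either (edgeR adjusted p = 0.843 and 0.915).

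**Figure D2:**
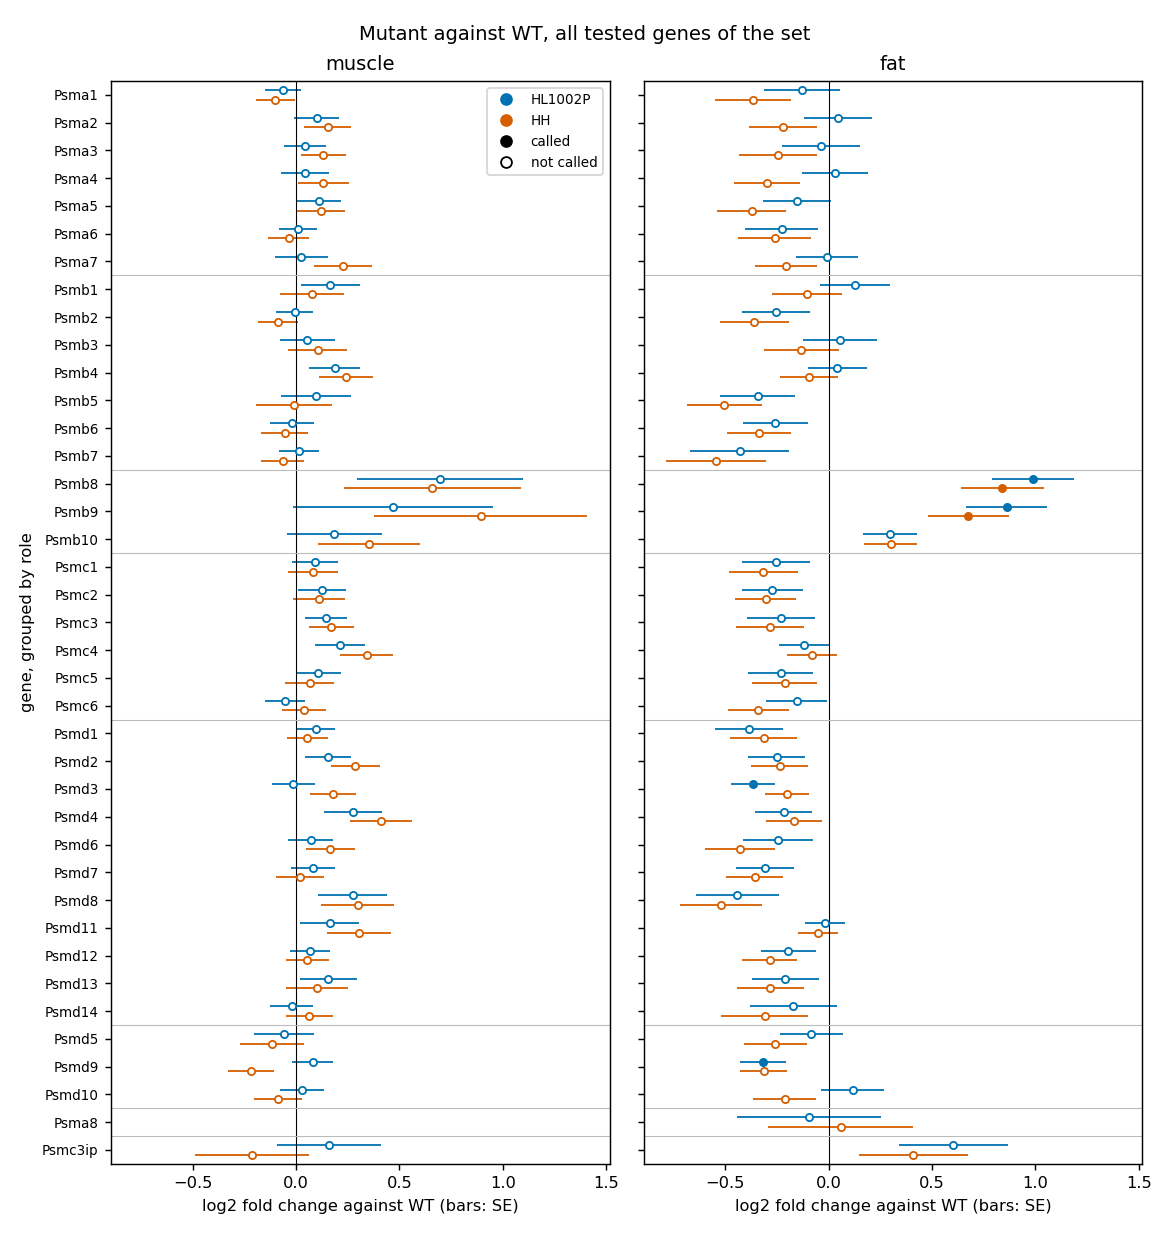
Log2 fold change against WT with its SE for each proteasome gene tested, grouped by role (horizontal lines), in muscle (left) and fat (right). Filled points passed the edgeR test. Only Psmb8 and Psmb9 (both mutants) and Psmd3 and Psmd9 (HL1002P), all in fat, are filled.

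Each immunosubunit was also set against the counterpart it replaces. In read counts, Psmb8 stood to Psmb5 at 1.59 ± 0.429 in WT fat (SD, n = 4), 3.88 ± 1.12 in HL1002P and 3.96 ± 1.38 in HH. The 4 WT libraries lay between 0.962 and 1.93 and the 8 mutant libraries between 2.23 and 5.55, with no overlap. The ratio of Psmb9 to Psmb6 was 0.529 ± 0.130, 1.12 ± 0.275 and 1.07 ± 0.345, and that of Psmb10 to Psmb7 was 0.608 ± 0.0943, 0.993 ± 0.198 and 1.15 ± 0.422. Here too every mutant library was above every WT one, the nearest being 0.712 against 0.642 for Psmb9 and 0.768 against 0.672 for Psmb10. Among single genes, 27.5% had no overlap between HL1002P and WT fat libraries and 25.9% between HH and WT. For pairs of genes such a share was not computed. Neither Psmb10 nor Psmb7 passed the test on its own in either mutant. WT replicate 2 had the lowest ratio of the 12 fat libraries in all 3 pairs. In muscle the same ratios were 0.0709 ± 0.0143, 0.112 ± 0.0630 and 0.117 ± 0.0938 for Psmb8, and stayed under 0.13 in every library for Psmb9 and Psmb10. Per length of principal transcript, Psmb8 made up 46.0% ± 7.66 of Psmb8 and Psmb5 together in WT fat, 67.0% ± 7.92 in HL1002P and 67.3% ± 7.66 in HH. In WT muscle it made up 3.76% ± 0.729. The level of these shares depends on the gene length used: with the union of all annotated exons the fat values were 29.3%, 49.9% and 50.2%. For Psmb9 with Psmb6 the shares in fat were 23.6%, 39.3% and 37.9%, and for Psmb10 with Psmb7 34.8%, 46.4% and 49.1%. With the union of exons the shares of Psmb10 in fat were higher, at 54.7%, 66.1% and 68.2%, and those of Psmb9 were 21.1%, 36.01% and 34.7%.

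**Figure D3:**
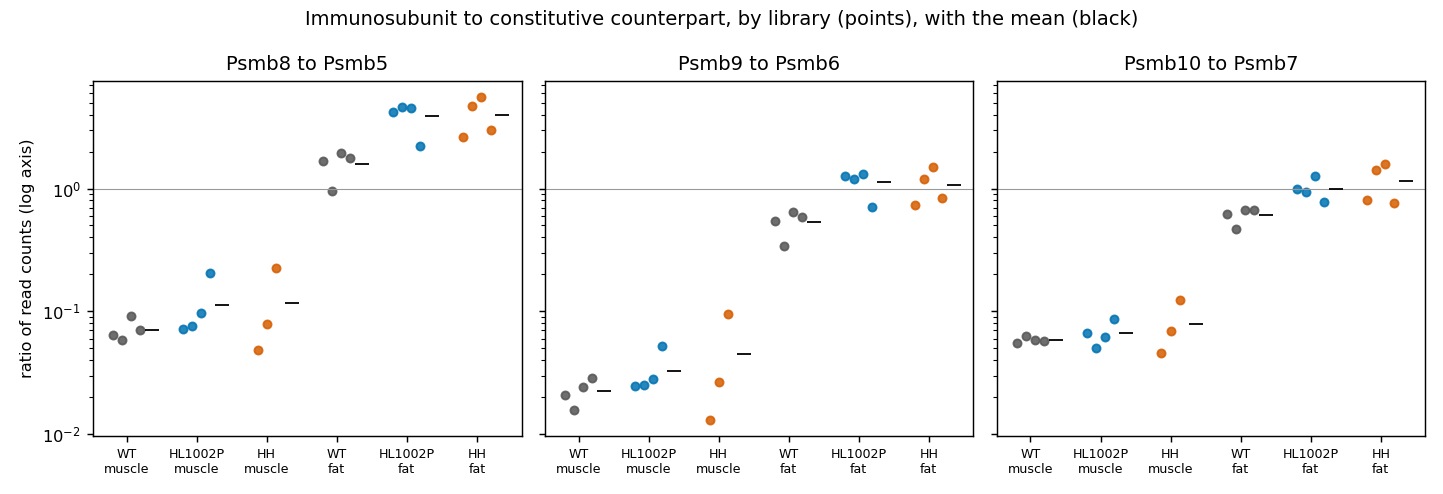
Ratio of read counts (log axis) of each immunosubunit to its constitutive counterpart, 1 point per library and the group mean in black; the grey line marks a ratio of 1. In fat all mutant libraries lie above all WT libraries in each pair, and muscle lies far below fat throughout.

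Genes that work with the proteasome were taken from 4 lists. Of 15 regulators and assembly factors found and tested, 1 rose and 2 fell in HL1002P fat, 20% called where 31.8% of all genes were. Psme1, a subunit of the interferon-induced activator cap, rose by 0.44 ± 0.13 (edgeR adjusted p = 0.0282), while its partner Psme2 was at 0.21 ± 0.18 (adjusted p = 0.394). Psme4, an activator known from testis and DNA repair, fell by 0.53 (edgeR adjusted p = 0.0192), and Adrm1, a ubiquitin receptor of the regulatory particle, fell by 0.54 (adjusted p = 0.0217). In HH fat 1 of the 15 passed (6.67%, against 20.8% of all genes), Psme4, which fell by 0.43 (edgeR adjusted p = 0.0479), and Psme1 was at 0.33 (adjusted p = 0.0895). Of 7 genes that govern transcription of proteasome genes, the NF-Y subunits Nfya (0.67) and Nfyb (0.46) rose in HL1002P fat. Nfe2l1, the factor that raises proteasome genes when the proteasome is inhibited, fell by 0.99 (SE 0.26, edgeR adjusted p = 0.0181), from 618 ± 186 CPM in WT to 310 ± 69.0. These 3 were 42.9% of the list, against 31.8% of all genes. In HH fat 1 of the 7 passed (14.3%, against 20.8% of all genes), Nfya (0.67, edgeR adjusted p = 0.0224). Of the 8 HL1002P fits without 1 library, the call was lost in 7 for Nfyb, in 5 for Psme4 and for Adrm1, in 4 for Psme1 and for Nfe2l1, and in 1 for Nfya. In HH it was lost in 5 of 8 for Psme4 and in 4 of 8 for Nfya.

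Of 14 genes of MHC class I presentation, 4 rose and none fell in HL1002P fat, 28.6% called where 31.8% of all genes were called and 17.3% were higher. They included Irf8, a transcription factor of B cells and myeloid cells, at 1.54 ± 0.33 (edgeR adjusted p = 0.0102), Tap1 at 1.03 ± 0.24 (adjusted p = 0.0122) and Nlrc5 at 0.78 ± 0.19 (adjusted p = 0.0147). The fourth, Irf1 (0.54, edgeR adjusted p = 0.0492), lies outside the naming rule and was named after its value was seen. In HH fat 3 of the 14 rose, Irf8 (1.47), Tap1 (0.98) and Nlrc5 (0.69), and none fell, 21.4% called against 20.8% of all genes. The HL1002P calls of Irf8, Tap1 and Nlrc5 were kept in all 8 fits without 1 library, while in HH they were lost in 1, 3 and 5 of 8. Tap1 and Psmb9 share their start region, as shown above, and Tap1 was at 117 ± 20.4 CPM in WT, 240.2 ± 51.9 in HL1002P and 232 ± 69.2 in HH. Rps27a, which encodes ubiquitin fused to a ribosomal protein, rose by 0.79 ± 0.27 in HL1002P fat (edgeR adjusted p = 0.0451), a call lost in 6 of the 8 fits without 1 library. In muscle none of the genes of these 4 lists passed in any genotype comparison, and Psme1 was at -0.20 ± 0.20 in HL1002P and -0.26 ± 0.22 in HH.

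In mutant fat, lymphocyte markers rose beside Psmb8 and Psmb9, while few macrophage markers passed the test. The 15 lymphocyte markers, among them Cd79a of B cells and Cd3e of T cells, all rose in HL1002P (100%, against 31.8% of all genes called, median 2.32). In HH 12 of 15 rose (80%, against 20.8% of all genes called, median 2.14). The 15 markers summed to 88.3 to 803 CPM in WT fat, 1598 to 4200 in HL1002P and 1999 to 3868 in HH. No marker was at 0 in any fat library. HL1002P replicate 4, the mutant library with the lowest Psmb8, also had the lowest sum among the mutants. Within WT the levels did not run together in this way: replicate 1 had 88.3 CPM of lymphocyte markers and 132 CPM of Psmb8, and replicate 2 had 803 and 113. Of the 11 macrophage markers found in the table, 1 rose in HL1002P fat (Lyz2, 1.12) and 0 in HH, 9.09% and 0% called. Of these 11 markers, 7 had positive values in HL1002P and 10 in HH. Their sum was 1592 to 2096 CPM in WT, 1517 to 3560 in HL1002P and 1926 to 4070 in HH. Of 9 fat cell markers 5 fell in HL1002P (55.6%, against 31.8% of all genes called), and 8 of the 9 values were negative (median -1.12). In HH 1 rose and 0 fell (11.1%, against 20.8% of all genes called), though 7 of the 9 values were negative (median -0.82). Of 5 endothelial markers 4 fell in HL1002P (80%) and 3 in HH (60%). None of the muscle fibre or epithelial markers passed.

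With the mean log2 level of the lymphocyte markers as a covariate in the edgeR fit, Psmb8 was at 0.69 in HL1002P (adjusted p = 0.9998) and 0.58 in HH (adjusted p = 0.946). Psmb9 was at 0.61 and 0.46, Psmb10 at 0.21 and 0.22, and Psmd3 and Psmd9 in HL1002P at -0.25 and -0.25. No gene of the whole table passed in either comparison of a mutant with WT in that fit, in which the covariate and the genotype run together. How much of the immunosubunit levels came from lymphocytes and how much from other cells cannot be told apart here.

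**Figure D4:**
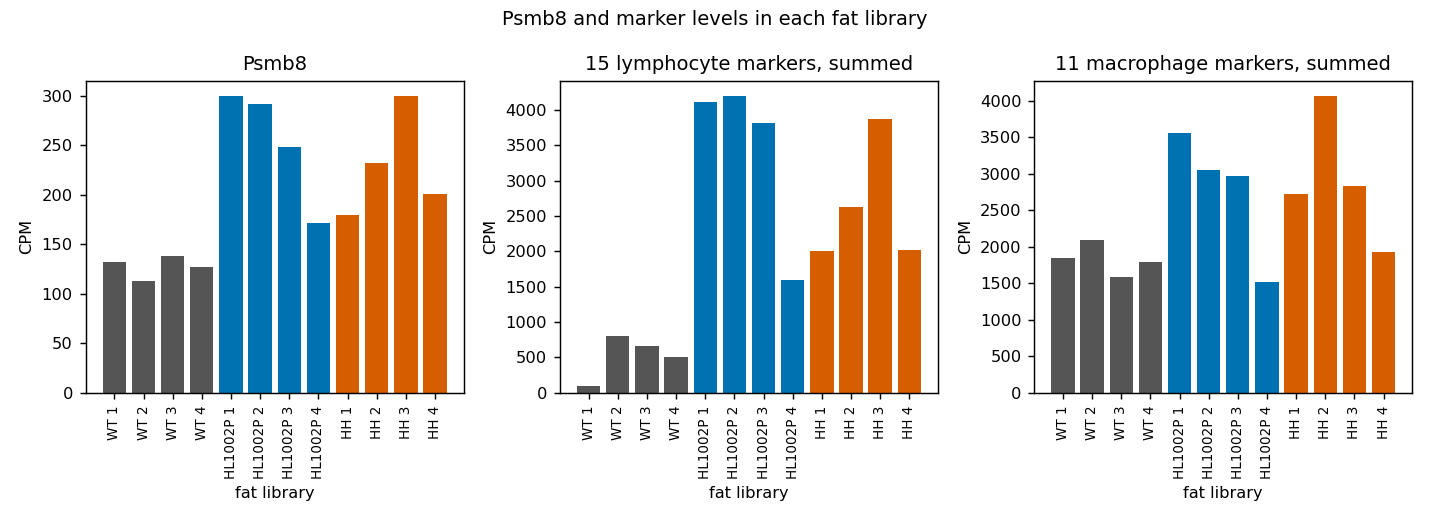
Psmb8 (left), the sum of the 15 lymphocyte markers (middle) and the sum of the 11 macrophage markers (right) in each fat library, in CPM on linear axes from 0 and coloured by genotype. WT replicate 1 is lowest in lymphocyte markers but not in Psmb8, and HL1002P replicate 4 is the lowest mutant library in all 3 panels.

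HL1002P fat was also compared with HH fat. Of all genes, 0% passed (edgeR; 535 at an unadjusted p under 0.05, 20 by DESeq2, 0 by limma voom), and of the 39 proteasome genes 0 passed and 0 had an unadjusted p under 0.05. The values of HL1002P against HH were 0.15 ± 0.20 for Psmb8, 0.19 ± 0.20 for Psmb9 and 0.00 ± 0.13 for Psmb10, and 30 of 39 were positive (median 0.10 against 0.01 over all genes). The smallest p-values were those of the chaperone Psmd10 (0.33 ± 0.15) and the alpha subunits Psma4 (0.33 ± 0.16) and Psma2 (0.26 ± 0.17), each with an edgeR adjusted p of 0.999. None of the 39 had groups without overlap, where 2.13% of all genes had.

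The interaction of genotype and tissue, in the fit of all 23 libraries, addressed whether a mutant's effect differs between tissues. It called 19% of genes for HL1002P and 7.39% for HH, and 0 of 38 proteasome genes for either (edgeR; DESeq2 also gave 0 for each, and 5 and 6 had an unadjusted p under 0.05). So the calls of Psmb8 and Psmb9 in fat and their absence in muscle are not shown to be a difference between tissues: the muscle effect minus the fat effect was -0.36 ± 0.49 for Psmb8 in HL1002P and -0.25 ± 0.51 in HH, and -0.45 ± 0.56 and 0.16 ± 0.58 for Psmb9. For the non-ATPases all 11 differences were positive for both mutants (medians 0.29 and 0.31), as were all 6 of the ATPases (0.27 and 0.34). Over all genes, 6212 of 11870 were positive for HL1002P and 6145 for HH. Both mutants share the WT libraries and genes of a role share every library, so these counts are not independent. The values nearest to passing were those of Psmd8, a lid subunit, at 0.64 ± 0.26 in HL1002P (edgeR adjusted p = 0.0852) and 0.75 ± 0.27 in HH (adjusted p = 0.0881). Next were Psmd9 (0.33 ± 0.14) and Psmd1 (0.41 ± 0.18) for HL1002P, and Psmd6 (0.53 ± 0.20) and Psmd4 (0.51 ± 0.20) for HH. With the replicate number within each genotype as a block across tissues, Psmd8 passed in both (0.64 and 0.84, edgeR adjusted p = 0.0488 and 0.0412). It also passed in both without WT muscle replicate 1, the highest WT muscle library for this gene at 312 CPM. Libraries of the tissues were otherwise treated as independent, since the labels do not say which came from the same mouse.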

How the data were processed

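RNA-seq of 23 libraries was used. The authors deposited raw counts per gene in 1 table of 24062 symbols. Per the submitters' processing notes, the tools were TopHat2 2.0.14, Bowtie2 2.2.6 and featureCounts 1.4.6, and the build mm10. The annotation, strand setting and treatment of multi-mapped reads are not given in the sources used here.

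Tests were those of edgeR 4.0.16 (R 4.3.3), with TMM scaling, filterByExpr by group, and quasi-likelihood tests, with every library of a tissue in 1 fit and a coefficient for each genotype. Benjamini-Hochberg adjustment ran over all genes tested, and an adjusted p under 0.05 passed. Tissues and interactions were compared in a joint fit, for which a gene's mean had to reach 1 CPM in muscle and in fat. CPM values used the TMM-scaled library sizes of each tissue (factors 0.937 to 1.08 in muscle and 0.829 to 1.13 in fat). Ratios of read counts have no test. Lengths and positions came from GENCODE M21 (GRCm38, the build of mm10), the longest best-ranked principal transcript of a gene being used, and start regions from RefSeq.

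The members and lists were chosen with earlier results of these data known. Named were always the 3 immunosubunits and their counterparts, Psma8, Psmb11, Psmc3ip, Psme1 and Psme2. For each comparison up to 3 genes past the test per role and direction were added, or the 3 with the smallest p where none passed, and up to 3 past it per outside list. Whether replicate numbers pair the libraries was read from correlations over genes of how same-numbered libraries deviated from the mean of their group. Between HL1002P and HH muscle all 3 pairs correlated above 0.1 (r = 0.288, 0.363 and 0.271), so the numbers paired those libraries by the data alone. The fit with the replicate block called 0 of 38 between HL1002P and HH muscle too. DESeq2 1.42.0, limma 3.58.1 (voom), other scalings and filters, a sex covariate (from Xist and Y-linked genes), a lymphocyte covariate, the replicate block and leaving out each library were tried. By those genes WT fat had 2 female and 2 male libraries, and HL1002P and HH fat had 1 female and 3 male each. WT and HL1002P muscle had 2 of each sex, and HH muscle 1 female and 2 male. Some genes of the outside and marker lists are not reported here. The procedure was tested on simulated data.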

Additional observations from a re-analysis of the deposited data

Results flagged for a closer look

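Of 135 groups of 4 libraries checked for a library that stands far from the rest (the gap to its neighbour over the group's range), 12 had one. For a single group chance gives about 1 in 20. The checks share libraries and genes and are not independent, so the count of 12 does not show an excess. WT fat replicate 2 stood high for Psmb5 (117.4 CPM), Psma7 (187.6 CPM), Psmd10 (30.36 CPM) and Psmc3ip (3.398 CPM). HL1002P muscle replicate 1 stood high for Psmb5 (149.2 CPM) and for Psmd4 (281.3 CPM), and WT muscle replicate 4 for Psmb5 (129.3 CPM). HL1002P fat replicate 4 stood high for Psmd3 (129.3 CPM) and low for Psmc4 (83.26 CPM) and for the ratio of Psmb9 to Psmb6 (0.7124). HH fat replicate 3 stood high for Psmb10 (156.4 CPM). In HL1002P muscle replicate 4 the ratio of Psmb9 to Psmb6 was 0.05178, the highest of its group.

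No proteasome gene, but the following genes of the outside lists, had a mutant effect that differed between tissues by the edgeR interaction test. For HL1002P the muscle effect minus the fat effect was 0.9111 on the log2 scale for Nfe2l1 (adjusted p = 0.0357), -1.4148 for Irf8 (adjusted p = 0.0398), -0.8987 for Nfyb (adjusted p = 0.0235), -0.7504 for Nfya (adjusted p = 0.0339) and -0.4026 for Nfyc (adjusted p = 0.0222). For HH it was -0.5187 for Nfyc (adjusted p = 0.0179). With 1 library left out, the HL1002P call was lost in 11 of 16 fits for Irf8, 8 of 16 for Nfya, 3 of 16 for Nfyb and 2 of 16 for Nfyc, and the HH call of Nfyc in 1 of 15. Nfe2l1 lies outside the naming rule for this comparison, and its call was not followed in those fits.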

How the results depend on the processing

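Depth limits the low genes, such as Psmb9 with 95 to 679 reads per muscle library and Psmc3ip with 51 to 136, and the 3 HH muscle libraries limit every HH muscle value. The count of proteasome genes past the test was 0 in the 3 muscle comparisons and in HL1002P against HH fat under every alternative run. In HL1002P against WT fat it was 4, and became 2 with the compared groups only, 0 with the lymphocyte covariate, and 2 to 5 with 1 library left out (2 without WT replicate 1 or 2 or HL1002P replicate 1, 2 or 3). In HH against WT fat it was 2, and became 5 with DESeq2, 1 with the sex covariate, 0 with the lymphocyte covariate, and 0 to 3 with 1 library left out (0 without HH replicate 2 or 3, 1 without WT replicate 1 or 2). The gene kept there with the sex covariate was Psmb8 (0.77, edgeR adjusted p = 0.0340), while the call of Psmb9 was lost. With the replicate block within a tissue, 3 genes passed in HL1002P fat, where Psmd9 no longer did (-0.31, adjusted p = 0.0811), and 2 in HH fat. Psmd9 was also the 1 gene lost, leaving 3, with RLE size factors (adjusted p = 0.0574), no filter on low counts (adjusted p = 0.0672) and the sex covariate (adjusted p = 0.0535). Replicate numbers did not pair the fat libraries of a mutant with those of WT (r = -0.254 to 0.320 for HL1002P and -0.380 to 0.439 for HH). Between HL1002P and HH fat, r was 0.609 and 0.408 for replicates 3 and 4, and -0.0747 and 0.0843 for replicates 1 and 2. For the interactions, 0 became 1 for each mutant with the replicate block across tissues, and 0 to 1 with 1 library left out (Psmd8 without WT muscle replicate 1, and Psmd1 for HL1002P without WT fat replicate 3).

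Among the named genes followed in the alternative fits, signs turned for the following values. Except where stated they did not pass in the fit reported, and the cause was not tested. In HL1002P against HH muscle, Psmb8 (0.04) was -0.068 with the replicate block. With 1 library left out, Psmb8 ran there from -0.32 to 0.81, Psmb9 from -0.85 to 0.69 and Psmb10 from -0.43 to 0.23. In HH against WT muscle the ranges were -0.12 to 0.99 for Psmb8, -0.22 to 1.32 for Psmb9 and -0.047 to 0.61 for Psmb10, the lowest each time without HH replicate 3. In HL1002P against HH fat, Psmb10 (-0.0032) was 0.0035 with DESeq2, 0.0031 with RLE size factors and -0.067 to 0.10 with 1 library left out. In HL1002P against WT fat, Rps27a, which passed, was -0.19 with the lymphocyte covariate. In the HH interaction, Psmb9 (0.16) was -0.24 with the replicate block across tissues and Psmb10 (-0.016) was 0.034 with filterByExpr. With 1 library left out, Psmb8 ran there from -1.03 to 0.10, Psmb9 from -0.95 to 0.59 and Psmb10 from -0.42 to 0.26. Between tissues, scaling by library totals alone was chosen after seeing the data, as was the union of exons. Of the named genes it turned Psma3 (-0.15), Psma4 (-0.29), Psma6 (-0.067), Psmd9 (-0.53), Psmc3ip (-0.38) and Ubb (-0.45), all of which passed in the fit reported. It also turned proteasome genes that were not named there, which were not followed singly.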
